A study of Saccharomyces cerevisiae with 44 samples.

Results

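The small nucleolar RNAs (snoRNAs) and small nuclear RNAs (snRNAs) of budding yeast were followed from growth into quiescence, in newly made and in total RNA. They were taken as every line of the deposited coding and structural RNA count table whose category was snoRNA or snRNA. This gave 83 of 7006 features, 77 annotated as snoRNA and 6 as snRNA. By their annotated class, 47 were box C/D snoRNAs, 29 were box H/ACA snoRNAs, 6 were the spliceosomal snRNAs and 1 was NME1, the RNA of ribonuclease MRP, which cuts ribosomal RNA precursors. By position, 54 were single genes, 19 lay in clusters, 8 lay in introns and 2 (snR6 and snR52) are read by RNA polymerase III.

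Box C/D snoRNAs guide the methylation of ribosomal RNA by the methyltransferase Nop1, and box H/ACA snoRNAs guide the conversion of uridine to pseudouridine by Cbf5. A few do not act mainly as guides but are needed to cut the ribosomal RNA precursor, among them U3 (genes snR17a and snR17b), U14 (snR128), snR30 and snR10. The snRNAs U1 (snR19), U2 (LSR1), U4 (snR14), U5 (snR7) and U6 (snR6) are the RNA core of the spliceosome. In yeast most of these genes are read by RNA polymerase II from promoters of their own. The Nrd1-Nab3-Sen1 complex ends their transcription, and the nuclear exosome with its nuclease Rrp6 trims the 3′ end of the precursor.

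All cells were of strain background W303. Nascent RNA was captured by labelling with 4-thiouracil (4tU-seq), and steady-state RNA is the total RNA of the cells taken. Quiescent wild-type cells of day 7 were set against wild-type cells of day 1 held in G1 by 5 µg/ml of the pheromone α factor (a second dose followed at 90 min where needed), in nascent and steady-state RNA, in libraries made with the Ovation SoLo kit. All other libraries were made with the Universal Plus kit, and no comparison crosses the kits. Quiescent rrp6Δ cells, which lack RRP6, were set against wild-type cells at day 8, in nascent and steady-state RNA. Steady-state RNA of rrp6Δ and wild-type cells was also taken in α factor G1 and at 2 h before and 2 h, 24 h and 48 h after the diauxic shift, when glucose runs out. Quiescent Nab3-AID cells of day 7, whose tagged Nab3 is degraded on addition of auxin (1 mg/ml IAA), were set against OsTIR-AID cells, treated alike, in both fractions. Quiescent cells came out of saturated rich-medium cultures (2% glucose) through a density gradient, so they are the part of the culture that the gradient kept. There were 22 groups of 2 libraries, described as biological replicates, and each replicate of a group carries a strain number of its own. The p-values of single genes rest on the spread between replicates over all groups of a fit, moderated over all features. They do not measure the spread of the compared pairs alone.

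The libraries held 8394823 to 68400863 aligned reads, 1337088 to 11939647 reads on S. cerevisiae mRNAs and 69035 to 1467965 reads on the snoRNA and snRNA genes. Levels are given in RPM, here relative to the S. cerevisiae mRNA reads of the library after TMM scaling, so a level is set against mRNA and not against cells. RRP6 mRNA stood at 3.18 to 20.1 RPM in the 14 rrp6Δ libraries and at 79.2 to 272.8 in the 30 others. NAB3 mRNA does not check the depletion, which acts on the protein. FUS1, a gene switched on by pheromone, stood at 957.7 to 1901 in the G1 libraries and at no more than 34.1 elsewhere. Reads of Kluyveromyces lactis genes came with every library, at an unstated step and amount. Scaling to them instead put the median log2 change of all features tested anywhere from -4.51 to 2.16, and its value or count is given beside the called changes that it turned in direction. It moves all features of a comparison together, so counts of called members under it follow that shift too. Counts under this and the other alternative settings are given without the share of all features. Fewer cells of a state and less RNA per cell cannot be told apart in such bulk samples.

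Counts of some genes need care. Reads that touch 2 features were left out of the counts, so 9 of the 83 genes were at 0 in every library: the 8 intronic snoRNAs and snR7-S, the short form of U5. For the same reason the counts of snR10 and snR7-L (long U5) hold only reads that touch their last 29 and 35 bases, where no other feature overlaps, and are a readout of the 3′ end and beyond. Those of snR73 hold only reads that touch its first 4 or last 21 bases. For 11 genes the shared reads could be restored as the difference between 2 deposited tables, and such values are called restored. Restored reads of an intronic snoRNA can come from the snoRNA or from unspliced RNA of its host. The U3 genes snR17a and snR17b are nearly identical in sequence, so the split of reads between them is uncertain.

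The abundance of the group as a whole differed widely between states. The summed reads of all 83 genes came to 174238 and 288347 RPM (for sums without the TMM factor) in quiescent steady-state libraries of the Ovation set, against 52437 and 46762 in G1, a 4.53-fold difference of geometric means, as for all folds of sums. Nascent libraries held far less of them, 18798 and 16311 in quiescent cells against 7362 and 5897 in G1, a 2.66-fold difference that turned to 0.103-fold per K. lactis read. In steady-state RNA of wild-type cells around the shift the sum averaged 50686 ± 2007 at 2 h before it, 76896 ± 1054 at 2 h, 170643 ± 11710 at 24 h and 373169 ± 6954 at 48 h after it (SD, n = 2). Per K. lactis read these sums did not rise at any step. None of these groups overlapped, and the exact permutation test (two-sided) gives p = 0.333 for each pair, the smallest that 2 against 2 libraries allow.

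**Figure D1:**
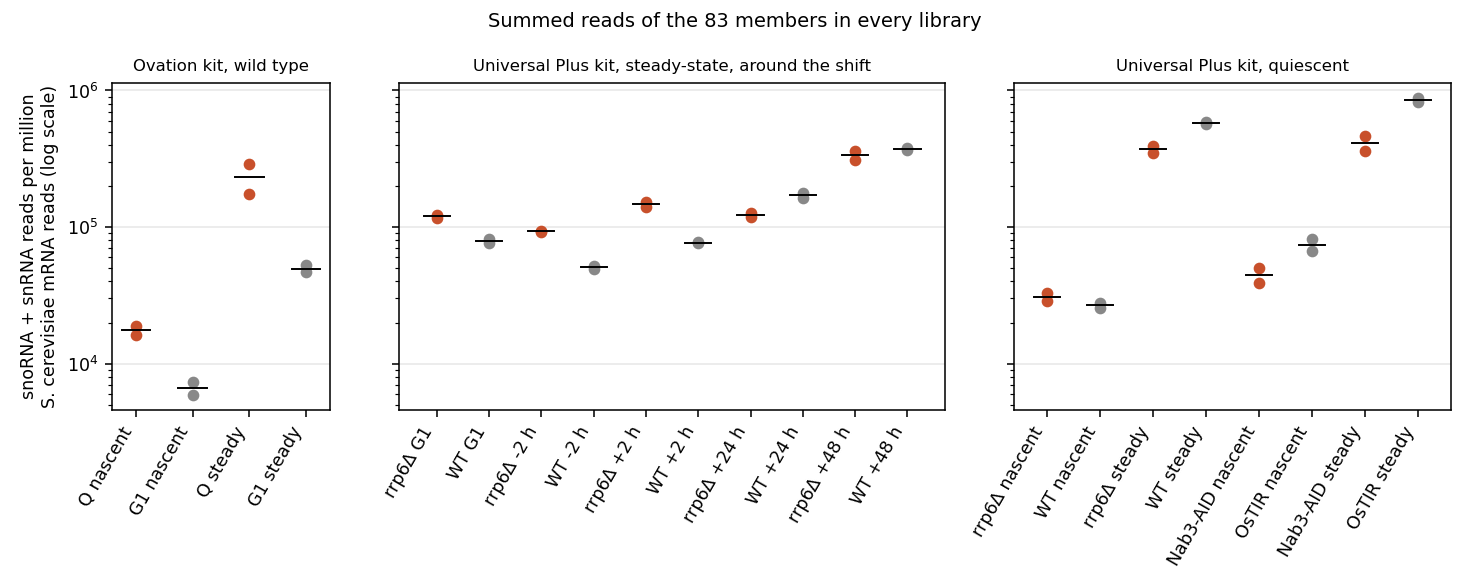
Summed reads of the 83 snoRNA and snRNA genes in RPM, relative to S. cerevisiae mRNA reads without the TMM factor, on a log axis. Points are libraries and bars are means of 2, with wild-type Ovation libraries in the first panel, steady-state libraries around the shift in the second and quiescent rrp6Δ, wild-type, Nab3-AID and OsTIR-AID libraries in the third. Wild-type means were 50686, 76896, 170643 and 373169 at the 4 times around the shift, a climb that is absent per K. lactis read, and Nab3-AID steady-state libraries averaged 414211 against 853134 in OsTIR-AID, while nascent sums lay below every steady-state sum of their own state.

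Per kilobase of annotated length, with restored reads, U2, U1, U3 (snR17a) and a few snoRNAs led the levels in nearly every group. LSR1, annotated at 1175 nt (chromosome II, 680688 to 681862, minus strand; positions are on sacCer3/R64), snR19 at 568 nt (chromosome XIV, 230105 to 230672, minus strand) and snR17a at 490 nt (chromosome XV, 780107 to 780596, plus strand) were among the 5 highest in 21, 18 and 22 of the 22 groups, and the H/ACA snoRNAs snR10, snR30 and snR37 and the C/D snoRNA snR190 filled most of the other places. In OsTIR-AID steady-state RNA these 3 did not differ beyond their spread: snR19 had 354652 and 420773 RPM per kilobase (restored), snR17a 369598 and 399713, and LSR1 347724 and 384589. Genes shorter than 110 nt stood lower than genes of 180 nt or more in every group, for example at a median of 1009 against 21179 RPM per kilobase in quiescent wild-type steady-state RNA of day 8. The rank correlation of length with level over the 83 genes was between 0.125 and 0.745 in the 22 groups. The genes share each library, and how well short RNAs are recovered by the RNA and library kits was not tested.

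In steady-state RNA of wild-type cells, quiescence went with higher levels of nearly all of these genes relative to mRNA. Of 72 tested, 63 were higher and 1 was lower than in G1, with a median log2 change of 2.08, against 36.8% higher and 37.8% lower among all 6277 features tested (adjusted p under 0.05, edgeR's quasi-likelihood test) and a median of -0.01. All 4 snRNAs tested were higher, as were 24 of 26 H/ACA and 34 of 41 C/D snoRNAs. The only lower call, snR73, rests on 0 reads in quiescence against 9 in G1, at least 1.89-fold lower, and its restored reads were higher by 1.83 ± 0.31.

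Among the snRNAs, LSR1 (U2) had 34636 and 62504 RPM in quiescent cells against 10160 and 12667 in G1 (2.09 ± 0.44, adjusted p = 0.00214). U1 (snR19) had 23606 and 43315 against 4078 and 3520 (3.14 ± 0.42, adjusted p = 0.000134). U4 (snR14, chromosome V, 167427 to 167586, minus strand) had 535.7 and 1027 in quiescent cells against 93.9 and 49.8 in G1 (3.44 ± 0.38), the largest rise of any member. U6 (snR6, chromosome XII, 366235 to 366346, plus strand), which pairs with U4 and is made by RNA polymerase III, had 769.5 and 849.6 against 89.2 and 65.0 (3.39 ± 0.43). The groups of each of these snRNAs did not overlap, and in all but U6 quiescent replicate 2 was well above replicate 1.

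The snoRNAs of pre-rRNA cleavage behaved unevenly. U3 from snR17a rose, with 19813 and 25938 RPM in quiescent cells against 5879 and 5605 in G1 (1.99 ± 0.33). Its near copy snR17b (chromosome XVI, 281056 to 281517, minus strand) had 2919 and 4142 in quiescent cells against 3546 and 2995 in G1 (0.11 ± 0.30, adjusted p = 0.751), and its groups overlapped. U14 (snR128, chromosome X, 139566 to 139691, minus strand) rose by 1.94 ± 0.29, snR30 (chromosome XII, 198784 to 199389, plus strand) by 1.69 ± 0.39, and restored snR10 (chromosome VII, 345986 to 346230, plus strand) by 1.93 ± 0.29. The neighbour of U14 in its cluster, snR190, rose by 1.13 ± 0.38 (adjusted p = 0.0254), a call that was lost without either G1 steady-state library (without replicate 1 or replicate 2) and without quiescent steady-state replicate 2. NME1 rose by 1.63 ± 0.40, and snR52, a C/D snoRNA made by RNA polymerase III, by 2.07. With K. lactis scaling 32 of the 72 genes were higher and 1 lower, and LSR1, snR17a, snR128, snR30 and snR190 kept their direction but were not called.

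In 2 of the clusters, which are genes of one strand less than 400 nt apart, some members were called and others were not. In the cluster of snR78, snR77, snR76, snR75, snR74, snR73 and snR72 on chromosome XIII (297278 to 298651, plus strand), snR74 rose by 2.79 ± 0.32 and snR75 by 2.32 ± 0.25 in quiescence. snR76 had 13.4 and 12.1 RPM in quiescent cells against 16.6 and 8.29 in G1 (0.04 ± 0.45, adjusted p = 0.941). In the cluster on chromosome XII, snR61 rose by 2.35 ± 0.32 and snR55 by 2.67 ± 0.36, while snR57 had 39.1 and 34.4 in quiescent cells against 53.1 and 30.7 in G1 (-0.19 ± 0.28, adjusted p = 0.565). The difference between members of one cluster was not tested.

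In nascent RNA the same contrast gave a split picture. Of 72 genes, 13 were higher and 10 lower in quiescent than in G1 cells, with a median of 0.20, against 29.3% higher and 33.1% lower of all features, and with K. lactis scaling all 72 were lower, where the median of all features stood at -4.51. The H/ACA snoRNAs had 8 higher and 0 lower (median 0.75), the C/D snoRNAs 3 higher and 10 lower (median -0.16), and the snRNAs 2 higher of 4. The count fell to 11 higher and 4 lower without G1 nascent replicate 1 or quiescent nascent replicate 2, and to 5 higher and 7 lower without G1 nascent replicate 2.

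U1, the H/ACA guide snR161 and U2 led the nascent rises. snR19 had 1474 and 1108 RPM in quiescent cells against 295.6 and 247.0 in G1 (2.25 ± 0.40), and LSR1 6363 and 4627 against 1440 and 1097 (2.11 ± 0.44), while with K. lactis scaling they stood at -2.29 and -2.45. Between them snR161 had 64.5 and 48.9 against 13.3 and 12.5 (2.14 ± 0.20), and -2.37 with K. lactis scaling. The U3 genes went opposite ways: snR17a rose by 1.28 ± 0.32, a call lost without G1 nascent replicate 2 and a value of -3.25 with K. lactis scaling, while snR17b had 122.8 and 106.6 in quiescent cells against 369.1 and 234.5 in G1 (-1.40 ± 0.31). The largest falls were of short C/D snoRNAs: snR87 (chromosome XI, 431030 to 431138, minus strand) averaged 4.66 ± 0.764 in quiescent cells and 21.6 ± 2.32 in G1 (SD, n = 2 each) without overlap (-2.22 ± 0.36), snR57 stood at -1.77 and snR56 at -1.45. U4 (snR14) was not called, with 23.8 and 21.3 in quiescent cells against 37.0 and 39.5 in G1 (-0.76 ± 0.36, adjusted p = 0.0924).

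The rise in quiescence was thus smaller in nascent than in steady-state RNA for many members, and the difference was tested as an interaction. It was lower in nascent RNA for 44 of 72 genes and higher for 0 (median -1.59), against 20.3% higher and 16.7% lower of all features, and with K. lactis scaling it was lower for 71 and higher for 0. The count was 29 without G1 nascent replicate 1, 27 without G1 steady-state replicate 2 and up to 55 without another library. U4 (snR14) had the largest difference, -4.20 ± 0.52, followed by the C/D snoRNAs snR56 (-3.96) and snR74 (-3.62). LSR1 differed by 0.03, with no call. Of the 44 genes, 32 were C/D snoRNAs, 10 were H/ACA snoRNAs and 2 were snRNAs.

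Within one state the nascent fraction held less of these RNAs than the steady-state fraction. In quiescent cells 69 of 72 genes were lower in nascent RNA and 1 was higher (median -4.55), against 28.1% higher and 23.9% lower of all features, and in G1 61 were lower and 0 higher (median -3.00), against 12.1% and 15.8%. The single higher gene was snR73, counted at its ends alone, at 22 reads in nascent against 0 in steady-state libraries, at least 1.99-fold, while its restored reads stood at -3.29. U6 (snR6) had 5.63 and 16.8 RPM in nascent RNA of quiescent cells against 769.5 and 849.6 in steady-state RNA (-6.16), the largest fall of the quiescent comparison. In G1 the largest was that of the H/ACA guide snR46 (-4.40), and U4 (snR14) was not called (-0.91). In G1 with K. lactis scaling the calls were 8 higher and 22 lower, so the fall of the other genes was not called there.

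**Figure D2:**
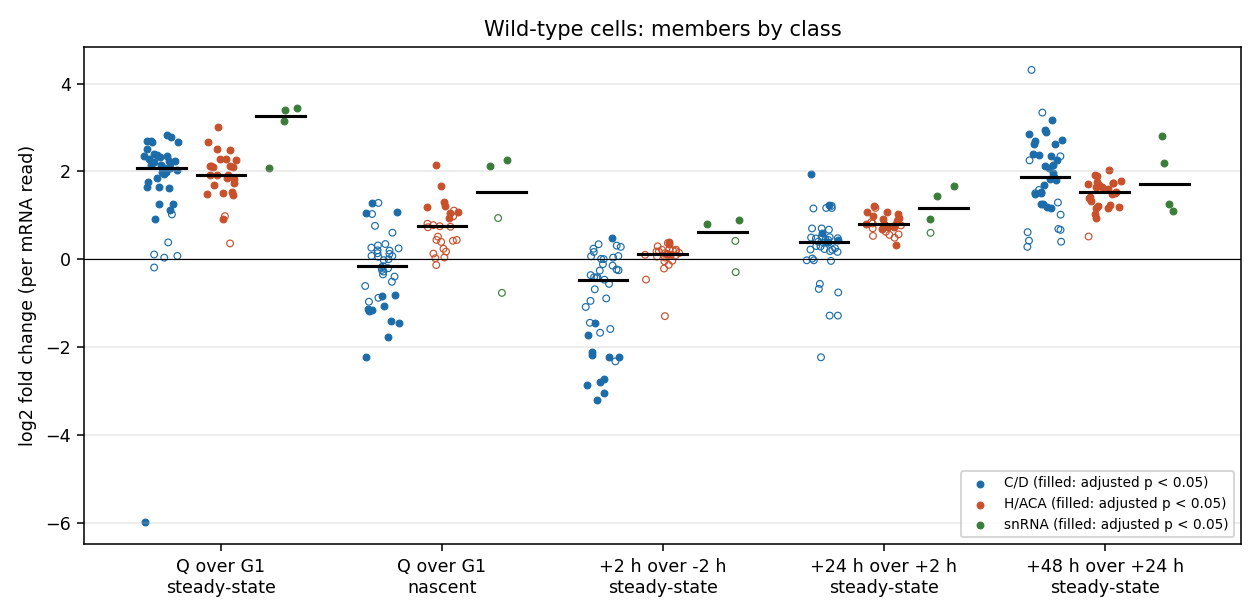
Log2 changes of each tested snoRNA and snRNA gene in 5 wild-type comparisons, by class. Each point is a gene, filled where the adjusted p was under 0.05, and bars are class medians: steady-state quiescent over G1 sat at a median of 2.08 over all members and nascent at 0.20, and the steps from 2 h before the shift had medians of -0.03, 0.60 and 1.65, but with K. lactis scaling all called genes were lower in nascent RNA and at 2 to 24 h, and most at 24 to 48 h. The C/D point near -6 is snR73 (0 reads against 9).

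Among the mRNAs of proteins that bind these RNAs, those of the snoRNA core particles were lower in quiescence, against 37.8% lower of all features. The mRNAs of all 4 core proteins of C/D particles were lower in quiescent steady-state RNA (median -3.80), NOP1 at 75.2 and 80.9 RPM against 1055 and 1081 in G1 (-3.78 ± 0.28). The 4 core proteins of H/ACA particles were lower too (median -2.66), led by GAR1 at -4.60 and CBF5, the pseudouridine synthase, at -2.80. Of 13 assembly and processing factors 4 were higher, led by RSA1 (1.79) and HIT1 (1.25), and 9 were lower, led by SRP40 (-2.31) and NAF1 (-1.97). The 14 Sm and Lsm proteins, which bind the snRNAs, had 4 higher and 2 lower (median -0.02), with SMX3 at 2.73, against 36.8% higher and 37.8% lower of all features. In nascent RNA both cores were lower in 4 of 4 again, at medians of -0.99 and -1.11, against 33.1% lower of all features. TBF1, a transcription factor of snoRNA promoters, was higher in both fractions (0.94 in steady-state and 0.65 in nascent RNA), but its nascent value was -3.82 with K. lactis scaling. Of the 8 hosts of intronic snoRNAs 1 was higher (RPS22B, 1.01) and 6 were lower in steady-state RNA. Hosts, here and below, were tested in a separate fit of the mRNA counts, so the shares of all features beside them come from another fit. Host counts cover the gene with its introns, so reads of the intronic snoRNA can be part of them. How much of a host value, such as that of RPS22B, comes from such reads was not tested.

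Of 7 intronic snoRNAs with restored reads 5 went up, against 36.8% of all features. The host mRNAs of those 5 went down, against 37.8% of all features. A snoRNA and its host are not independent readouts, because the host counts hold the restored reads too. snR24, in an intron of ASC1, had 781.4 and 343.5 RPM of restored reads in quiescent cells against 88.7 and 55.6 in G1 (2.96 ± 0.43), and ASC1 mRNA stood at -2.13. snR39, in RPL7A, rose by 2.15 ± 0.22 while its host was lower, snR38, in TEF4, by 1.88 ± 0.35 against -3.87, snR18, in EFB1, by 1.25 ± 0.30 against -2.11, and snR59, in RPL7B, by 1.62 ± 0.46 against -1.92. snR54, in IMD4, and snR191, in NOG2, were not called (0.54 ± 0.35 and 0.77 ± 0.43). In nascent RNA snR38 and snR54 were lower (-1.45 ± 0.36 and -2.50 ± 0.36), and TEF4 and IMD4 stood at -2.67 and -2.72.

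Around the diauxic shift the long and the short members of the wild type parted. From 2 h before to 2 h after glucose exhaustion 5 genes rose and 11 fell of 73, with a median of -0.03, against 39.8% higher and 35.4% lower of all 6480 features tested. All 5 rises were of genes of 180 nt or more, and all 11 falls of genes under 110 nt, of the C/D class, whose median was -1.01 over the short genes. U1 (snR19) had 10993 and 10767 RPM at 2 h after the shift against 5919 and 5721 at 2 h before it (0.90 ± 0.12, and -0.043 with K. lactis scaling), and LSR1 had 33076 and 31768 against 18317 and 18555 (0.81 ± 0.13, and -0.13). snR56, a C/D guide of 88 nt (chromosome II, 88190 to 88277, plus strand), had 0.356 and 2.40 at 2 h after against 13.0 and 13.1 at 2 h before (-3.20 ± 0.33). snR52 had 1.25 and 2.06 against 14.3 and 13.4 (-3.05 ± 0.52), and snR87 stood at -2.85. The count was 10 higher and 16 lower without either rrp6Δ 48 h library, which share the fit, 8 and 19 with the batch 1 runs alone, and 0 and 48 with K. lactis scaling.

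From 2 h to 24 h after the shift 23 genes rose and 0 fell (median 0.60), against 33% higher and 25.6% lower of all features, while with K. lactis scaling 0 rose and 28 fell. LSR1 rose by 1.44 ± 0.13, snR19 by 1.68 ± 0.12 and snR17a by 1.23 ± 0.13, which became 0.01, 0.25 and -0.20 with K. lactis scaling. Of 31 genes of 180 nt or more 20 rose. From 24 h to 48 h 58 rose and 0 fell (median 1.65), against 32.5% and 37.2%, while with K. lactis scaling 2 rose and 4 fell. Over the 4 times LSR1 had 18317 and 18555, then 33076 and 31768, 91565 and 83821, and 189852 and 188549 RPM, and snR19 5919 and 5721, 10993 and 10767, 35798 and 33863, and 86890 and 79449. Each step of both genes was called without overlap, but the last stood at -0.25 and -0.11 with K. lactis scaling. U4 rose by 2.18 ± 0.30 and U6 by 2.81 ± 0.84 at the last step, and the U6 call was lost with the batch 1 runs alone (0.99, adjusted p = 0.181). Wild-type replicate 1 at 48 h was sequenced in both batches and replicate 2 in batch 1 alone. Replicate 2 at 48 h was lower than replicate 1 for short members, as for U6 at 74.1 against 337.2, and without replicate 1 there were 34 rises and the calls of the 3 largest (snR79 3.18, snR39B 2.95 and snR65) were lost. snR65 rests on 11 reads at 48 h against 2 at 24 h, a ratio of levels of 7.95 (exact 95% interval 1.73 to 73.8, for counting error only, as in all such intervals).

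The mRNAs of the core particle proteins were lower at the first and last of these steps. At 2 h after the shift all 4 C/D core proteins (median -4.02), all 4 H/ACA core proteins (median -3.16), 12 of 13 assembly factors and all 8 host genes (median -3.51) were lower, against 35.4% of all features. Of these core mRNAs 7 of 8 were higher again at 24 h than at 2 h, against 33% of all features, with medians of 0.76 for C/D and 0.99 for H/ACA, which became -0.66 and -0.44 with K. lactis scaling. At 48 h against 24 h the C/D core was lower in 4 of 4 (median -2.02) and the H/ACA core in 3 of 4 (median -1.02), while the 13 assembly factors had 3 higher and 4 lower and the 14 Sm and Lsm proteins 5 higher and 3 lower, against 32.5% higher and 37.2% lower of all features. With restored reads snR54 was lower at 2 h after the shift (-6.85 ± 0.54), as were snR38 (-1.66 ± 0.40) and snR24 (-1.93 ± 0.62).

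Without Rrp6, growing cells held far more reads on the short C/D snoRNAs. In α factor G1, 45 of 73 genes were higher and 2 lower in rrp6Δ than in wild-type cells (median 0.70), against 26.4% higher and 22% lower of all features. Of genes under 110 nt 24 were higher and 0 lower (median 3.14), of C/D snoRNAs 30 and 0 (median 2.62), of H/ACA snoRNAs 11 and 2 of 27 (median 0.42), and of genes of 180 nt or more 11 and 2 (median 0.30). Among C/D snoRNAs of 110 nt or more, 6 of 11 were higher (median 0.41). The rank correlation of length with level was 0.231 in rrp6Δ and 0.629 in wild-type G1 cells, and the median level of genes under 110 nt was 2478 against 349.6 RPM per kilobase.

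The largest rise in G1 was that of snR53, a C/D guide of 91 nt (chromosome V, 61699 to 61789, plus strand), with 262.7 and 197.7 RPM in rrp6Δ against 1.29 and 1.39 in wild-type cells (7.40 ± 0.27, adjusted p = 2.25e-13). snR58 had 224.3 and 209.0 against 3.23 and 2.25 (6.28 ± 0.51), snR48 rose by 5.37, and snR71 (chromosome VIII, 411228 to 411317, plus strand) had 204.6 and 177.4 against 6.30 and 6.58 (4.89). In the wild-type G1 libraries of the Ovation kit, which are not compared with these, snR53 had 20.1 and 16.4, snR48 350.7 and 219.2 and snR71 32.2 and 23.1 RPM. In the chromosome XIII cluster snR72, snR74, snR75, snR76 and snR77 rose by 3.08 to 4.61, while snR78, the first of the cluster, had 7.35 and 7.18 in rrp6Δ against 9.54 and 10.4 in wild-type cells (-0.45 ± 0.22, adjusted p = 0.0912). Of the 19 clustered genes 13 were higher (median 3.62). Of the intronic snoRNAs with restored reads, snR59 rose by 5.95 ± 0.38, snR38 by 4.10 ± 0.22 and snR24, snR39, snR18 and snR54 by 2.11 to 2.81, while snR191 fell by 0.42 on the log2 scale.

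The long, abundant members changed little in G1. LSR1 had 31606 and 29676 in rrp6Δ against 20760 and 23013 in wild-type cells (0.49 ± 0.13), snR19 rose by 0.38, snR17a by 0.49 and snR30 by 0.42. NME1 was not called (0.10 ± 0.21). U6 rose by 2.16, with 643.6 and 605.7 against 141.6 and 137.2, and U4 by 0.80, but the U6 call was lost without rrp6Δ replicate 1 or either wild-type G1 library (adjusted p = 0.055 to 0.09), and the U4 call without any 1 of the 4 G1 libraries. snR52, the other RNA polymerase III gene, rose by 3.08 ± 0.25. Only 2 genes fell, the long H/ACA guides snR86 (1004 nt, chromosome XIII, 762110 to 763113, minus strand), with 2485 and 2261 in rrp6Δ against 5673 and 6299 in wild-type cells (-1.34 ± 0.11), and snR84 (550 nt, chromosome IV, 1492477 to 1493026, minus strand), at -0.93.

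Before and just after the shift the short C/D snoRNAs were higher in rrp6Δ as well, together with 22 genes of 180 nt or more at 2 h before it and 15 at 2 h after it. At 2 h before it 58 genes were higher and 2 lower in rrp6Δ cells (median 2.08), against 32.3% higher and 29.6% lower of all features, and 25 of the genes under 110 nt were higher and 0 lower (median 3.23). snR53 had 80.2 and 65.7 in rrp6Δ against 1.46 and 0.522 in wild-type cells (6.09), and U14 (snR128) 1337 and 1328 against 293.4 and 391.1 (1.96 ± 0.59). At 2 h after it 49 were higher and 3 lower (median 1.24), against 33.1% and 29.2%, and again 25 of the short genes were higher and 0 lower (median 2.54). snR56, nearly at 0 in the wild type at that time, had 126.0 and 114.4 in rrp6Δ against 0.356 and 2.40 in wild-type cells (6.41 ± 0.22), and snR71 67.0 and 65.5 against 1.07 and 0.514 (6.36). The falls at both times were of snR86 (-0.79 and -0.91) and snR84 (-0.84 and -1.48), joined at 2 h after the shift by snR17b (-0.77). The mRNAs of all 8 core proteins were lower in rrp6Δ at 2 h before the shift (medians -0.49 for C/D and -0.43 for H/ACA), and those of 7 of the 8 were higher at 2 h after it (medians 1.20 and 0.94).

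At 24 h after the shift long and short members went opposite ways. In all 39 genes were higher and 12 lower in rrp6Δ (median 1.17), against 31.8% higher and 33.2% lower of all features, although with K. lactis scaling 65 were higher and 0 lower. There were 26 higher and 0 lower among genes under 110 nt (median 3.82, or 3.59 with a gene at 0 set at its bound) and 5 higher and 12 lower among genes of 180 nt or more (median -0.29). snR53 had 46.9 and 38.9 in rrp6Δ against 0.324 and 0.297 in wild-type cells, or 589 reads against 2, a ratio of 139.1 (exact 95% interval 38.3 to 1151). U1 (snR19) had 11483 and 12612 against 35798 and 33863 (-1.53 ± 0.12), LSR1 38984 and 41867 against 91565 and 83821 (-1.12 ± 0.13, and 0.29 with K. lactis scaling) and snR86 stood at -1.67.

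At 48 h 14 of 73 genes were higher and 22 lower in rrp6Δ (median -0.34). By count this was near the 19.3% higher and 26.2% lower of all features. With K. lactis scaling 32 were higher and 9 lower, and without rrp6Δ replicate 2 rises outnumbered falls. Of H/ACA snoRNAs 17 were lower and 1 higher (median -1.08). Replicate 2 of both strains was low for short members: U14 had 2926 and 731.1 in rrp6Δ against 4606 and 1527 in wild-type cells, and U6 403.2 and 81.5 against 337.2 and 74.1, neither called. The rrp6Δ replicate 1 library was sequenced only in batch 2 and that of the wild type in both batches. Replicate 2 of both strains was sequenced only in batch 1, so replicate and batch cannot be told apart here. snR86 had 2139 and 2199 in rrp6Δ against 13727 and 15869 in wild-type cells (-2.77 ± 0.11), snR84 stood at -2.22 and snR81, an H/ACA guide of 201 nt for ribosomal RNA and U2, at -1.70. snR51 and snR71 were still higher (3.20 and 3.08), as was snR58 (3.27), whose call was lost without wild-type replicate 1.

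The effect of the deletion at 48 h was tested against that at 2 h before the shift. It was lower at 48 h for 49 of 73 genes and higher for 0 (median -1.98), against 21.4% higher and 26.9% lower of all features, with 24 calls under K. lactis scaling (2 higher and 22 lower). The largest differences were those of snR53 (-4.43 ± 1.26), snR80 (-4.25 ± 0.52) and snR48 (-3.78 ± 0.71), of which snR53 and snR48 were not called without wild-type 48 h replicate 1. Of the 49 genes 21 were C/D snoRNAs, 25 were H/ACA snoRNAs and 3 were snRNAs.

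**Figure D3:**
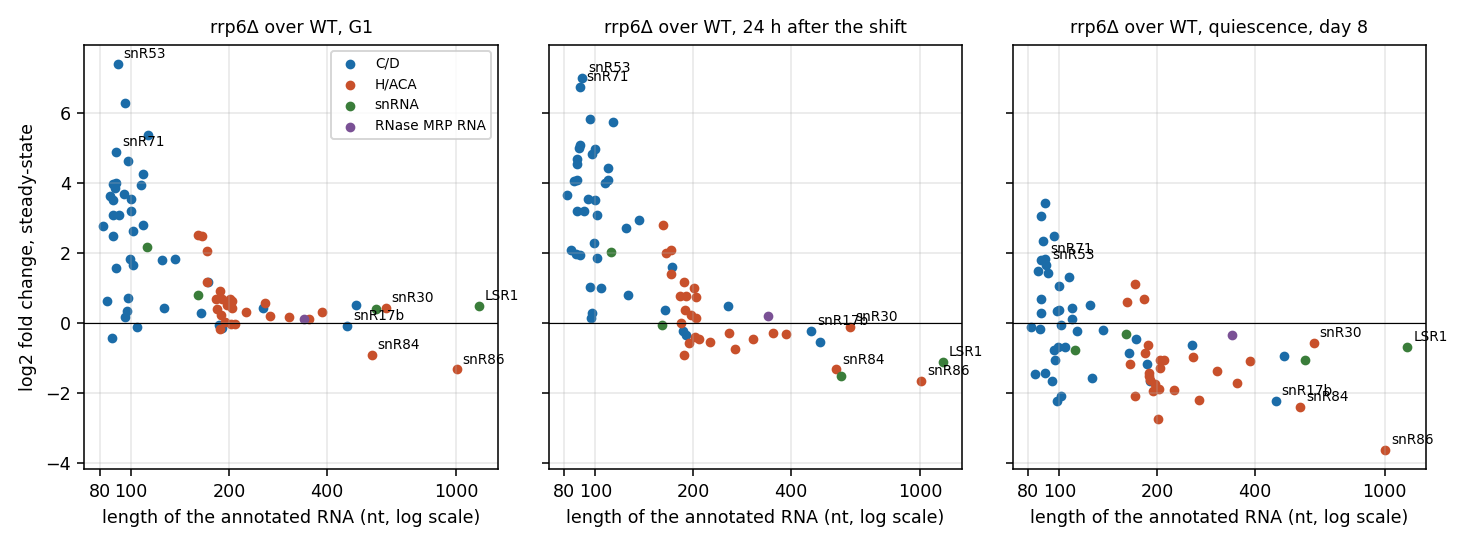
Log2 change of each gene in rrp6Δ over wild-type steady-state RNA against annotated length in nt on a log axis, in G1, at 24 h after the shift and in quiescence at day 8, without snR10, snR73 and snR7-L. The plotted genes under 110 nt had medians of 3.08, 3.65 and 0.33 and those of 180 nt or more 0.30, -0.29 and -1.35. With K. lactis scaling the median of all features stood at 0.13, 1.41 and 1.18 in the 3 panels, no gene was lower at 24 h, and more quiescent calls were higher than lower.

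In quiescent cells of day 8 the deletion went with lower steady-state levels of most members relative to mRNA. Of 73 genes, 13 were higher and 38 lower in rrp6Δ (median -0.71), against 5.18% higher and 7.39% lower of all 6426 features, but with K. lactis scaling 29 were higher and 11 lower, where the median of all features stood at 1.18. Of the 38 falls 28 were of genes of 180 nt or more (31 tested, median -1.29) and 23 were of H/ACA snoRNAs (median -1.40), while genes under 110 nt had 9 higher and 6 lower (median 0.35). The count of calls was 25 or 26 without rrp6Δ steady-state replicate 1 or 2 and 30 without wild-type steady-state replicate 1.

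snR86, the longest H/ACA guide, had 1332 and 1529 RPM in quiescent rrp6Δ cells against 18050 and 17674 in wild-type cells (-3.64 ± 0.18, adjusted p = 0.000104). snR81 (chromosome XV, 234346 to 234546, plus strand) had 174.2 and 180.5 against 1336 and 1071 (-2.76), and snR84 338.9 and 334.2 against 1844 and 1704 (-2.40). Of the U3 genes, snR17a had 48808 and 52577 against 100394 and 94216 (-0.94, and 0.21 with K. lactis scaling) and snR17b 1750 and 1940 against 8921 and 8402 (-2.23 ± 0.16). U14 stood at -1.59 and snR190 at -1.66. LSR1 stood at -0.70 ± 0.16, U1 at -1.06 and snR30 at -0.59, which became 0.45, 0.085 and 0.56 with K. lactis scaling, and the calls of LSR1 and snR30 were lost without any 1 of the 4 steady-state libraries. U4 and U6 were not called (-0.34 and -0.79). None of the 8 core protein mRNAs was called.

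Of the 13 rises in quiescence 9 were of C/D snoRNAs under 110 nt and 4 of H/ACA snoRNAs, among them snR10, whose counts are 3′ end reads. snR74 had 38.2 and 36.6 in rrp6Δ against 4.73 and 4.25 in wild-type cells (3.06 ± 0.35), snR58 rose by 2.47 and snR75 by 2.33. More abundant risers were the C/D guide snR66, with 689.0 and 729.7 against 318.8 and 191.1 (1.48), and the H/ACA guide snR85, with 792.4 and 907.0 against 404.9 and 379.6 (1.12), both named after their values were seen. snR61 had 4.29 and 5.43 against 0 and 0.849 RPM, or 30 reads against 1, a ratio of 11.1 (exact 95% interval 1.85 to 454.7), and its call was lost without any 1 of the 4 steady-state libraries. snR52 had 62.2 and 81.2 against 31.2 and 22.9 (1.42). In the chromosome XVI cluster snR51 rose by 1.29 ± 0.18 while snR70 (-0.88, and 0.27 with K. lactis scaling) and snR41 (-1.66) were lower. snR53, the leader in G1, had 4.29 and 9.23 in rrp6Δ against 2.84 and 1.70 in wild-type cells and was not called (adjusted p = 0.174).

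Nascent RNA of the same quiescent cells gave 17 genes higher and 1 lower (median 0.53), against 1.37% higher and 0.451% lower of all features. snR66 had 48.2 and 37.5 in rrp6Δ against 5.79 and 9.31 in wild-type cells (2.50 ± 0.30), snR58 rose by 1.87 and snR36, an H/ACA guide, had 59.96 and 44.45 against 15.97 and 15.10 (1.75). The single fall was again snR86, with 355.9 and 446.2 against 676.0 and 777.0 (-0.86 ± 0.17, adjusted p = 0.0478), a call lost without most single libraries. The count of calls was 6 without rrp6Δ steady-state replicate 1 or 2, which share the fit, 8 without rrp6Δ or wild-type nascent replicate 1, 30 with DESeq2 and 7 with K. lactis scaling. The interaction, nascent minus steady-state, was higher for 26 genes and lower for 1 (median 1.23), against 0.591% and 0.171% of all features, led by snR49 (2.84), snR86 (2.79) and snR80 (2.72), but no gene was called without any 1 of the 4 steady-state libraries, DESeq2 called 49 and K. lactis scaling gave 3 higher and 8 lower.

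**Figure D4:**
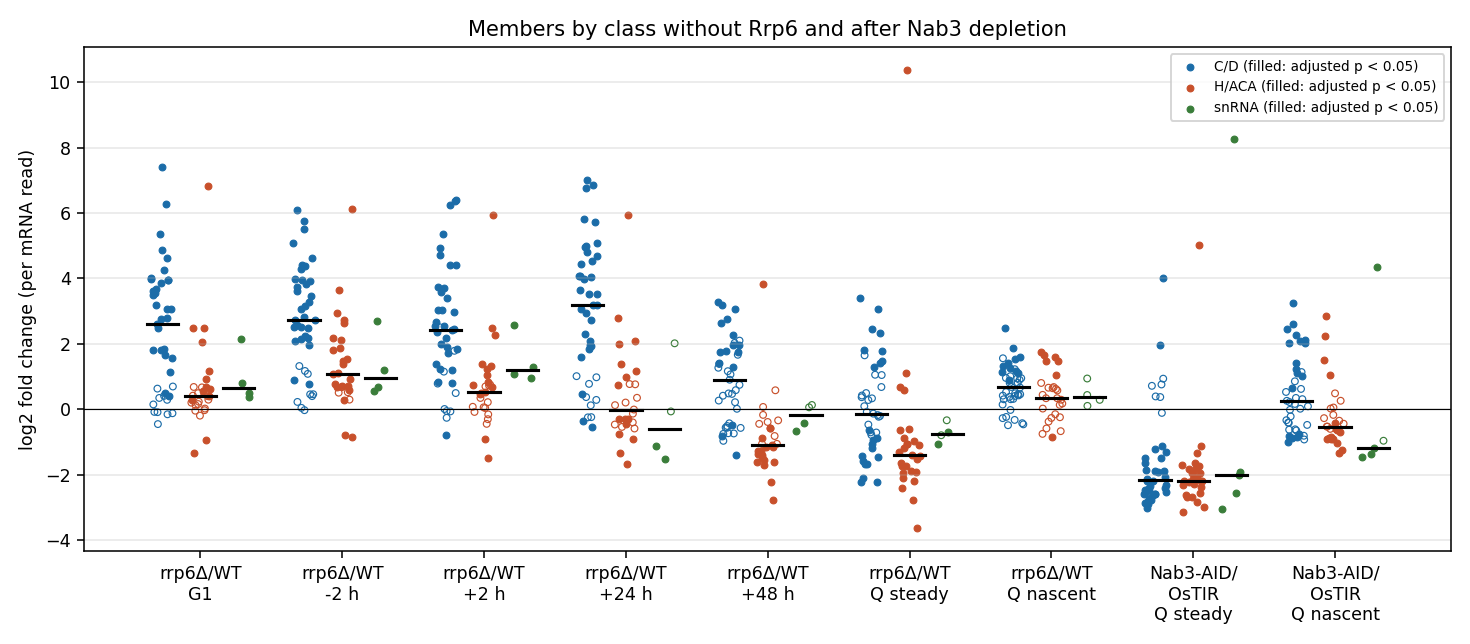
Log2 changes of each tested gene by class in rrp6Δ over wild-type libraries (G1, 4 times around the shift, quiescence steady-state and nascent) and in Nab3-AID over OsTIR-AID libraries (steady-state and nascent). Points are genes, filled where the adjusted p was under 0.05, and bars are class medians. The C/D median was 2.62 in G1 and -0.13 in quiescent steady-state RNA, and Nab3-AID steady-state changes had a median of -2.14 over all members. With K. lactis scaling more calls were higher than lower at 48 h (32 and 9), in quiescent rrp6Δ steady-state RNA (29 and 11) and in Nab3-AID nascent RNA (41 and 1), and the extreme H/ACA and snRNA points are snR10 and snR7-L, read at their 3′ ends only.

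Depletion of Nab3 in quiescent cells went with lower steady-state levels of nearly the whole group. Of 73 genes, 4 were higher and 63 lower in Nab3-AID than in OsTIR-AID cells (median -2.14), against 32% higher and 30.3% lower of all 6413 features. The falls took in 26 H/ACA snoRNAs, 32 of 40 C/D snoRNAs and 4 of 5 snRNAs. With K. lactis scaling 10 were higher and 25 lower, where the median of all features stood at 1.80.

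All 4 snRNAs read over their bodies fell. LSR1 had 90366 and 121623 RPM in Nab3-AID against 408576 and 451892 in OsTIR-AID cells (-2.02 ± 0.31), and U1 50391 and 66307 against 201442 and 238999 (-1.92 ± 0.28). U4 had 1374 and 1506 against 7951 and 8889 (-2.55 ± 0.18), and U6, which RNA polymerase III makes, 281.8 and 499.5 against 3610 and 2765 (-3.03 ± 0.44). The largest falls were of the H/ACA guide snR189, with 452.5 and 677.1 against 5519 and 4437 (-3.14 ± 0.20), and of the C/D guide snR64 (-3.01). U14 stood at -2.64, NME1 at -2.07 and snR52 at -2.53. snR17a (-1.64), snR17b (-1.48), snR190 (-1.50) and snR30 (-1.13) fell too, but stood at 0.013, 0.17, 0.15 and 0.51 with K. lactis scaling. With restored reads snR18 stood at -2.17, snR24 at -1.92, snR39 at -1.81 and snR191 at -1.40, of which snR191 stood at 0.24 with K. lactis scaling.

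Only 4 genes rose in steady-state RNA. The C/D guide snR71 had 56.6 and 91.7 RPM in Nab3-AID against 3.35 and 5.66 in OsTIR-AID cells (4.01 ± 0.45), and snR56 18.2 and 21.6 against 5.58 and 4.53 (1.95). The other two are genes counted at the 3′ end alone. Long U5 (snR7-L, chromosome VII, 939459 to 939672, minus strand) had 56 reads in Nab3-AID against 0 in OsTIR-AID libraries, at least 5.76-fold higher with 3 counts over the group as the floor. snR10 had 14.3 and 25.7 against 1.12 and 0, or 110 reads against 1, a ratio of 33.9 (exact 95% interval 5.96 to 1352).

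In nascent RNA 18 genes were higher and 21 lower in Nab3-AID cells (median -0.27), against 36.3% higher and 32.4% lower of all features, while with K. lactis scaling 41 were higher and 1 lower, and without Nab3-AID nascent replicate 1 16 were higher and 14 lower. Short and long members parted: genes under 110 nt had 11 higher and 0 lower of 29 (median 0.53), and genes of 180 nt or more 2 higher and 19 lower of 32 (median -0.67). LSR1 had 14709 and 19772 against 42346 and 52384 (-1.46 ± 0.31), U4 stood at -1.37 and the H/ACA guide snR32 at -1.34. snR87 had 4.90 and 5.14 against 0.631 and 0.303 (3.26 ± 0.54), snR58 rose by 2.62 and snR71 by 2.46. snR52, lower in steady-state RNA, was higher in nascent RNA (2.10 ± 0.49), as was snR49, a multi-site H/ACA guide (2.25 ± 0.42). The nascent minus steady-state difference was higher for 50 genes and lower for 0 (median 1.96), against 15.2% and 12.7% of all features, led by snR87 (5.38), snR49 (4.86), snR50 (4.86) and snR52 (4.63), and with K. lactis scaling it was higher for 24 and lower for 0.

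The 3′ side of these genes gave a second readout beside the bodies. Of the deposited noncoding transcripts, 55 lay on the same strand within 250 nt past the 3′ end of 61 members. Of these 51 overlap a member and so share its reads, and 4 overlap none: CUT350, 149 nt past snR49 (chromosome XIV, 716433 to 716706, plus strand), CUT447, 77 nt past snR161, CUT466, 128 nt past snR189, and CUT314, 144 nt past snR40. CUTs are transcripts that the exosome with Rrp6 degrades, so their rise in rrp6Δ is part of how such transcripts were catalogued. Of all noncoding transcripts tested, 68.5% were higher in rrp6Δ G1 cells, 33.4% in quiescent rrp6Δ steady-state RNA, 60.9% in Nab3-AID steady-state RNA and 74% in Nab3-AID nascent RNA.

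CUT350 rose while the snR49 body upstream of it fell in steady-state RNA, and both rose in nascent RNA of Nab3-AID cells. In Nab3-AID steady-state RNA CUT350 had 171.6 and 240.2 RPM against 0 and 1.13 in OsTIR-AID cells, or 1155 reads against 1, a ratio of 356.3 (exact 95% interval 63.8 to 14084). The body of snR49 (chromosome XIV, 716120 to 716284, plus strand) had 374.7 and 600.0 against 3542 and 2407 (-2.61 ± 0.33). In nascent RNA CUT350 had 163.5 and 213.2 against 3.99 and 3.94 (5.56), and snR49 58.2 and 83.3 against 16.2 and 13.0 (2.25 ± 0.42). In quiescent rrp6Δ steady-state RNA CUT350 had 81.9 and 78.2 against 1.89 and 1.70 in wild-type cells (5.47), and snR49 534.5 and 616.2 against 1411 and 1214. CUT466 had 40.8 and 40.2 in Nab3-AID steady-state libraries against 0 and 0, at least 24.1-fold higher (234 reads against 0), where its neighbour snR189 fell. CUT447, past snR161, had 25.02 and 38.17 in Nab3-AID cells against 0 and 2.26 in OsTIR-AID cells, or 176 reads against 2, a ratio of 27.1 (exact 95% interval 7.40 to 225.9). It had 48.7 and 49.7 in rrp6Δ against 0.646 and 1.04 in wild-type G1 cells (5.84). In wild-type G1 steady-state libraries of the Ovation kit, which are not compared with these, CUT447 had 11.9 and 16.1 RPM. The snR161 body fell in Nab3-AID steady-state RNA (-1.75) and rose in rrp6Δ G1 cells, with 288.2 and 264.6 against 45.9 and 52.0 (2.50 ± 0.34). CUT314 was called in Nab3-AID nascent RNA (2.51 and 5.29 against 0.210 and 0), or 58 reads against 1, a ratio of 30.0 (exact 95% interval 5.17 to 1205). In steady-state RNA CUT314 missed the threshold (adjusted p = 0.0509).

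For snR10 both readouts lie within one gene. Its 3′ end reads stood at 51.4 and 48.3 RPM in rrp6Δ against 0.646 and 0.173 in wild-type G1 cells (6.82), while its restored reads, which cover the body, stood at 6172 and 5833 against 6001 and 6554 (-0.065 ± 0.32, adjusted p = 0.886). In quiescent steady-state RNA the 3′ end had 147 reads in rrp6Δ against 0 in wild-type libraries, at least 18.2-fold higher, and the restored gene 14617 and 15424 against 30020 and 25262 (-0.88 ± 0.16, and 0.27 with K. lactis scaling). In Nab3-AID steady-state RNA the restored gene had 12312 and 19012 against 52964 and 48070 in OsTIR-AID cells (-1.69 ± 0.25). The 3′ end reads were a small part of the restored gene in all of these libraries.

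**Figure D5:**
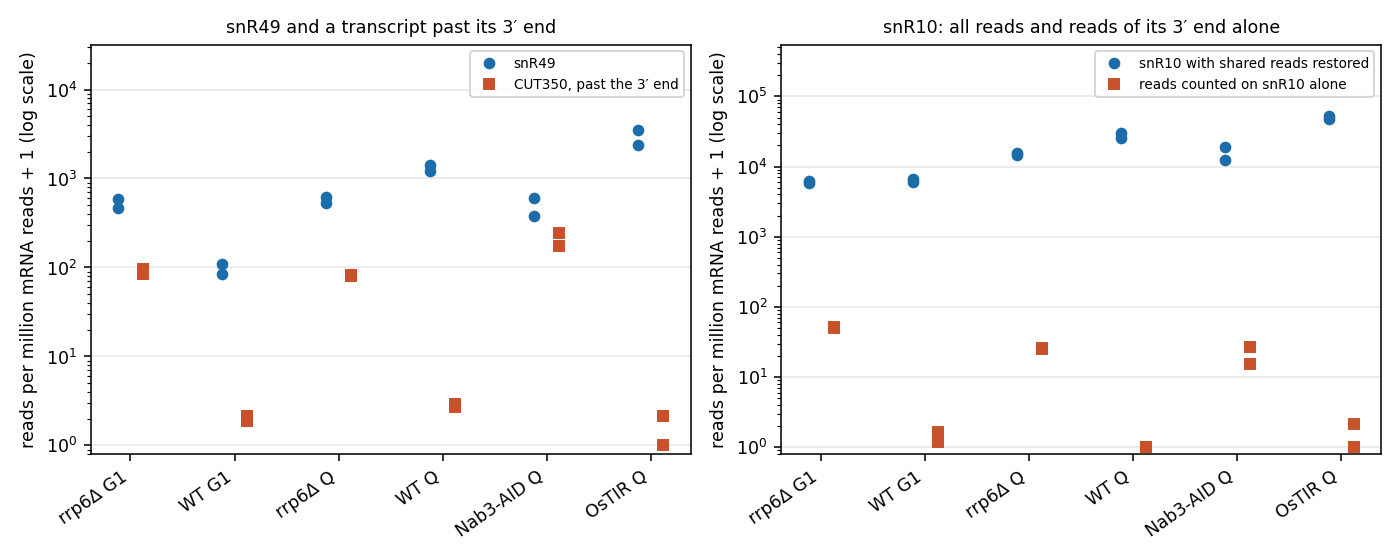
RPM plus 1, on log axes, of body and 3′ side in 12 steady-state libraries. The left panel sets CUT350 against the body of snR49 and the right panel the 3′ end reads of snR10 against its restored reads, with points for libraries of rrp6Δ and wild-type G1, rrp6Δ and wild-type quiescent, and Nab3-AID and OsTIR-AID quiescent cells. CUT350 stood at 78.2 to 240.2 in quiescent mutant libraries and at no more than 1.89 in their controls.

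The transcripts that the authors assembled from nascent reads hold most of these genes. In the quiescent assembly 80 members lay in 69 loci, with a median of 353 nt past the member's 3′ end, against 73 members in 62 loci and 189 nt in the G1 assembly. Of 54 members that were alone in their locus in both, 34 reached further in the quiescent assembly, 18 less far and 2 equally far, with medians of 331 and 163 nt and a median difference of 25 nt. Alone here means without another member, and some of these loci also hold coding genes. That of snR33 ran 3264 nt past it through genes in the quiescent assembly, against 152 nt in G1. For intronic snR38 the 1418 nt in both assemblies include the rest of its host. These lengths are thus not those of snoRNA 3′ ends alone. The assemblies pool libraries of a state and have no replicates.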

How the data were processed

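The authors deposited whole-number counts of reads per feature. Per the submitters' processing notes, FastQC, MultiQC, UMI-tools, STAR, SAMtools, HTSeq and deepTools were used on sacCer3/R64, with roles and versions not given in the sources used here. The 46 run columns of the 44 libraries were summed per library, including 2 libraries sequenced in both batches. Counts were tested with edgeR 4.0.16 in R 4.3.3 (quasi-likelihood test after filterByExpr, limma 3.58.1) over all features of the coding and structural RNA table. Library sizes and TMM factors came from the 6600 S. cerevisiae genes of the mRNA table, which also holds 5076 K. lactis genes. P-values were adjusted by Benjamini-Hochberg over all features tested, with a threshold of 0.05. Host genes, restored reads and noncoding transcripts were tested with the same settings in fits of their own. The standard error is the size of the log2 change over the square root of F. Separate fits took the 8 Ovation libraries, the 8 of day 8 quiescence, the 20 of G1 and the shift and the 8 with auxin, in 20 comparisons.

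The members and lists were chosen with earlier results of these data known. Named are the snRNAs, the snoRNAs of pre-rRNA cleavage, snR190, intronic, clustered and RNA polymerase III members, the 5 highest per length, and in each comparison the 3 largest called rises and falls without overlap. From the lists of particle proteins the 2 largest in each direction were taken. snR49, snR86, snR84 and snR81 were also followed through other comparisons after their values were seen. Alternatives were K. lactis scaling, TMM on the coding and structural RNA table, DESeq2 1.42.0, no filter, the replicate block, each library left out, restored reads (also with K. lactis scaling), batch 1 runs alone and windows of 100 and 500 nt. Reads are not independent molecules, and the floors of 3 counts cover counting error only. For groups of 1 to 3 reads of a named gene, the ratio of levels is given with its exact interval. Within the wild type, equal replicate numbers are the same strain, so they pair the samples. There the deviations of equal numbers correlated between -0.04 and 0.53. Between the strains they share only a number, yet the correlations lay between -0.10 and 0.67. The highest was that of rrp6Δ and wild-type quiescent nascent RNA, and its source was not tested. The main fits leave the pairing out. Replicates of a group differed by a chi-square of 2.26 to 87.2 per gene, beyond counting error, so none was a plain re-run of one library. Such a value cannot tell separate cultures from separate preparations of one sample. In simulated data every feature had the same fixed dispersion and the same mean in all groups, and scaling used the simulated counts themselves. The real spread differed between groups, so the rates below are not the power of these data. Tested on such data, the fit recovered 97% of 4-fold changes in 6094 features for quiescent over G1 steady-state RNA and 39.4% of changes of 2-fold. It recovered 85.9% and 30% in 6287 features for rrp6Δ over wild-type quiescent steady-state RNA, and the other two simulated comparisons lay within these ranges.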

Additional observations from a re-analysis of the deposited data

Results flagged for a closer look

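The 4 tested differences between contrasts each held called genes. The quiescent change was smaller in nascent than in steady-state RNA for 44 genes, with snR14 at -4.20, snR56 at -3.96 and snR74 at -3.62. The change in quiescent rrp6Δ cells differed between nascent and steady-state RNA for 27 genes, with snR49 at 2.84, snR86 at 2.79, snR80 at 2.72 and snR10 at -8.77. The snR10 value rests on 3′ end reads fitted against 0 reads in wild-type steady-state libraries, depends on the prior count and is no bound. With restored reads it was 1.45, and without any 1 of the 4 steady-state libraries no gene was called. The effect of the deletion at 48 h after the shift differed from that at 2 h before it for 49 genes, with snR53 at -4.43, snR80 at -4.25 and snR48 at -3.78, and without wild-type 48 h replicate 1 the calls of snR53 and snR48 were lost. Nascent minus steady-state change in Nab3-AID cells differed for 50 genes, with snR87 at 5.38, snR49 at 4.86 and snR50 at 4.86.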

How the results depend on the processing

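Scaling to K. lactis reads moved most, and the cause was not tested. Calls among the members then numbered 33 for quiescent over G1 steady-state RNA, 72 for nascent RNA, 71 for their difference and 30 for nascent against steady-state RNA in G1. For rrp6Δ they numbered 40, 7 and 11 in quiescent steady-state RNA, nascent RNA and their difference, 41 at 48 h after the shift and 24 for the effect at 48 h against 2 h before the shift. They numbered 48, 28 and 6 for the wild-type steps to 2 h, 24 h and 48 h, and 35, 42 and 24 for Nab3-AID steady-state RNA, nascent RNA and their difference. Summed reads turned direction for quiescent over G1 nascent RNA (log2 -3.28), rrp6Δ quiescent steady-state RNA (0.18), rrp6Δ at 24 h (0.59, and 0.17 without the 5 members with most reads), rrp6Δ at 48 h (0.23) and the wild-type steps to 2 h (-0.40), 24 h (-0.16) and 48 h (-0.16). Named members that turned were snR19 (-2.29), snR161 (-2.37), LSR1 (-2.45) and snR17a (-3.25) in quiescent over G1 nascent RNA. In rrp6Δ they were LSR1 (0.45), snR19 (0.085), snR17a (0.21), snR30 (0.56) and snR70 (0.27) in quiescent steady-state RNA, snR84 (0.076), LSR1 (0.29), snR17a (0.86) and snR190 (1.05) at 24 h, LSR1 (0.33), snR19 (0.10) and snR17a (0.30) at 48 h, and LSR1 (0.056), snR14 (0.075), snR30 (0.30) and snR190 (0.16) in the effect at 48 h against 2 h before. In the wild type they were snR19 (-0.043), LSR1 (-0.13), snR17a (-0.47) and snR30 (-0.61) at 2 h, snR14 (-0.51), snR17a (-0.20), snR17b (-1.04), snR30 (-0.55) and snR190 (-0.82) at 24 h, and LSR1 (-0.25), snR19 (-0.11), snR17a (-0.090), snR17b (-0.19), snR30 (-0.16) and snR190 (-0.16) at 48 h. In Nab3-AID cells they were snR17a (0.013), snR17b (0.17), snR30 (0.51) and snR190 (0.15) in steady-state and snR17a (0.35), snR128 (0.22) and snR190 (0.30) in nascent RNA. Among mRNAs TBF1 turned in quiescent over G1 nascent RNA (-3.82), as did the core medians of C/D (-0.66) and H/ACA particles (-0.44) in the wild-type step to 24 h. Restoring shared reads, an alternative chosen after seeing the data, turned snR73 in quiescent over G1 steady-state RNA (1.83) and in nascent against steady-state RNA of quiescent cells (-3.29), and snR10 in rrp6Δ quiescent steady-state RNA (-0.88), its nascent difference (1.45), G1 (-0.065), 24 h (-0.40) and 48 h (-0.55) and in Nab3-AID steady-state (-1.69) and nascent RNA (-0.25), because these counts otherwise hold reads at the ends alone. Restored reads with K. lactis scaling, chosen after seeing the data, turned snR10 in rrp6Δ quiescent steady-state RNA (0.27) and snR191 in Nab3-AID steady-state RNA (0.24), and the calls of restored snR10, snR18, snR24 and snR39 in Nab3-AID steady-state RNA were lost. DESeq2 called 30 genes in rrp6Δ quiescent nascent RNA and 49 in its difference from steady-state RNA. Batch 1 runs alone, also chosen after seeing the data, gave 27 calls for the wild-type step to 2 h. Leaving out single libraries gave 12 to 34 calls for quiescent over G1 nascent RNA, 27 to 55 for its difference from steady-state RNA, 25 to 52 for rrp6Δ quiescent steady-state RNA, 6 to 15 for nascent RNA, 0 to 32 for their difference, 26 to 47 at 48 h, 13 to 26 for the wild-type step to 2 h, 34 to 61 for that to 48 h and 30 to 43 for Nab3-AID nascent RNA. Of such values for named members 148 lost their call and 2552 kept it. The replicate block gave 63 calls for quiescent over G1 steady-state RNA, 26 for nascent RNA and 24 for rrp6Δ quiescent nascent RNA, and changed no call of the 195 values of named members. TMM on the coding and structural RNA table, no filter and windows of 100 and 500 nt left every count within 1.5 times. Members near 0 reads in one group limit what depth can show, as for snR53, snR61, snR73 and the 3′ ends of snR10 and snR7-L.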
